A study of Mus musculus with 18 samples.

Results

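Gene expression in single nuclei was compared between 2 brain regions of germ-free (GF) mice, the hippocampus (Hip) and the prefrontal cortex (PFC), and the libraries were chosen by their strain label. They are 6 of the 18 libraries of the series: 3 of Hip and 3 of PFC, and each of GF mice 5, 6 and 7 gave 1 of each region. The GF mice were male Kun Ming mice of 8 weeks that were raised without a microbiota in isolators, with no transgene and no drug. The other 12 libraries came in the same design from specific pathogen-free (SPF) mice, which carry a normal microbiota, and from colonized germ-free (CGF) mice, which were GF mice housed with SPF mice for 4 weeks. All mice were of 1 stock and age, and no GF library carried a microbiota, so that the regional differences below are differences within GF mice. Each library is 1 dissected region of 1 mouse.

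The hippocampus is a folded sheet of cortex in which granule cells of the dentate gyrus pass input to the pyramidal cells of CA3 and CA1, whereas the prefrontal cortex is a layered neocortex whose pyramidal cells differ by layer in their targets and genes. Both regions share the classes of interneurons, astrocytes, oligodendrocytes and microglia. Interneurons come from the ganglionic eminences in the embryo and use GABA; astrocytes clear transmitter and supply metabolites; oligodendrocytes make myelin; and microglia are the resident macrophages of the brain.

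The measurements were counts of unique molecular identifiers (UMIs, each standing for 1 captured RNA molecule) per gene in single nuclei. Of 51008 deposited barcodes of GF mice, 50089 nuclei had at least 200 genes and at most 10% mitochondrial UMIs, 25522 of Hip and 24567 of PFC, and all 919 nuclei left out failed on mitochondrial UMIs. The Hip libraries held 49067853 to 56240654 UMIs and the PFC libraries 59126586 to 71463928. Mitochondrial genes gave 0.451% to 0.879% of UMIs in Hip and 0.304% to 0.556% in PFC. Any pair of the 6 libraries shared 11 to 28 barcodes, at most 0.367% of the smaller library.

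Nuclei were put into classes by a gate on marker genes: a nucleus needed UMIs of at least 3 markers of a class and a lead of 0.2 in the scaled marker score over the next class. By this gate 16938 nuclei of Hip and 14947 of PFC were excitatory neurons, 1662 and 2615 interneurons, 1328 and 1538 astrocytes, 1552 and 938 oligodendrocytes and 514 and 780 microglia. A median of 5 or 6 of the 8 own markers was seen per nucleus in each class and region. Interneurons also held UMIs of a median of 3 of the 8 excitatory markers, which is the number the gate asks of a class, and astrocytes, oligodendrocytes and microglia of 2, in Hip as in PFC. Of the gated nuclei, 411 excitatory neurons of Hip and 270 of PFC had a lead under 0.3, as had 138 and 261 interneurons, 164 and 165 astrocytes, 134 and 100 oligodendrocytes and 53 and 105 microglia. The median number of UMIs per excitatory nucleus was 5937 to 6782 in Hip and 9126.5 to 9863 in PFC, whereas for the other classes the ranges of the regions overlapped or lay close together, for instance 1569 to 1802 and 1523 to 1721 in microglia.

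Interneurons and microglia made up a smaller share of nuclei in Hip than in PFC, and oligodendrocytes a larger share. Interneurons were 6.43%, 6.75% and 6.34% of nuclei in Hip of mice 5, 6 and 7 and 10.7%, 11.6% and 9.76% in PFC. Microglia were 1.99%, 2.13% and 1.91% in Hip and 3.37%, 3.19% and 2.99% in PFC. Oligodendrocytes were 5.87%, 7.39% and 4.95% in Hip and 4.22%, 3.599% and 3.66% in PFC. For these 3 classes no Hip library overlapped a PFC library.

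The difference between the regions was -4.19 ± 0.716 percentage points for interneurons (SD of the 3 within-mouse differences), -1.17 ± 0.175 for microglia and 2.25 ± 1.35 for oligodendrocytes. Astrocytes were 5.20% ± 0.712 in Hip and 6.26% ± 0.101 in PFC (SD, n = 3), again without overlap. Excitatory neurons were 66.5% ± 5.90 in Hip and 60.9% ± 1.28 in PFC, and their ranges overlapped, with mouse 6 at 60.9% in Hip and 62.3% in PFC. With 3 mice an exact permutation test of the pairs cannot go below p = 0.25, nor an exact test of 3 against 3 libraries below p = 0.1. Of the classes given so far, the 4 without overlap reached these smallest values, and rarer gated classes are left out of this count. Excitatory neurons did not reach them (exact two-sided p = 0.5 for the pairs and 0.2 for the libraries). With these limits no difference in share could pass 0.05 by these exact tests. A share of nuclei depends on all other classes and on which nuclei survive isolation, so fewer interneurons and more of other nuclei cannot be told apart.

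**Figure D1:**
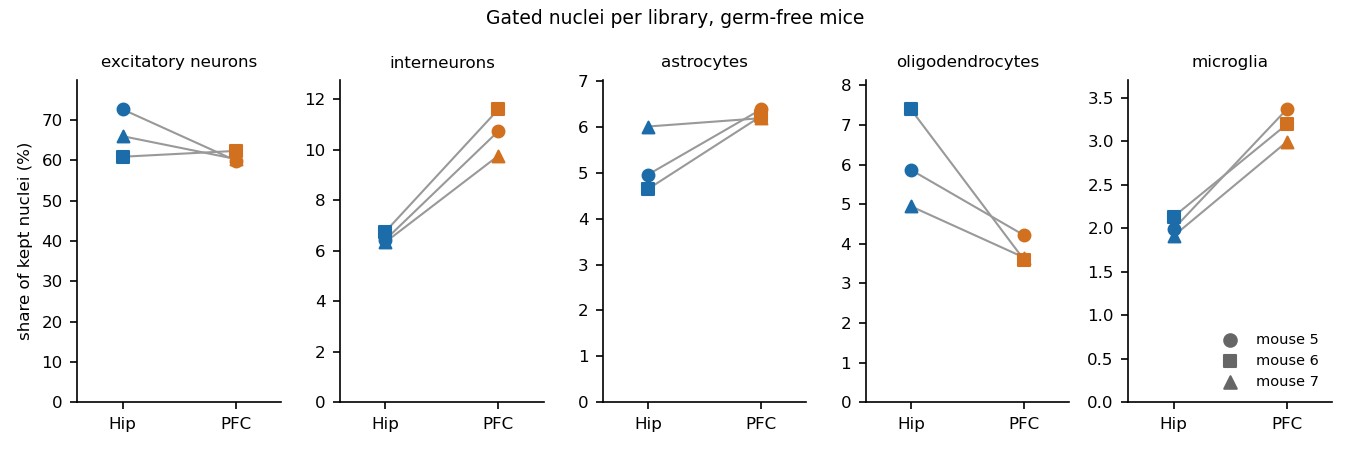
Share of nuclei (percent, each panel on its own axis from 0) of the gated classes in Hip and PFC of GF mice 5, 6 and 7, with a line joining the regions of each mouse. Interneurons and microglia lay lower in Hip in each mouse and oligodendrocytes higher, while excitatory neurons of mouse 6 went the other way.

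Choroid plexus differed among the Hip libraries. Nuclei gated as choroid plexus epithelium, which makes the cerebrospinal fluid, were 0% of nuclei in Hip of mouse 5 (0 of 8129, which allows a share of up to 0.0369% by counting error), 2.67% in mouse 6 and 0.7996% in mouse 7. No PFC library held any, which allows up to 0.0331% to 0.0393%. Ttr, the transthyretin gene that this epithelium expresses most strongly, followed them over all nuclei, with 6.41, 2685 and 666 CPM in Hip and 0.585, 0.184 and 0.306 CPM in PFC. In excitatory neurons Ttr had 6.39, 1719 and 405 CPM in Hip and 0.439, 0.0625 and 0.223 CPM in PFC, and in oligodendrocytes 11.9, 6338 and 1473 CPM in Hip and 1.36, 5.03 and 1.27 CPM in PFC. Its log2 fold change over all nuclei was 11.02 ± 1.80, a call lost under at least 1 other setting, and the Hip libraries of mice 5 and 6 differed by far more than mouse 5 from PFC. The summed level of the choroid plexus markers in excitatory neurons was 20.3 to 1746 CPM in Hip and 6.19 to 8.65 CPM in PFC. Striatal projection neuron genes, markers of tissue that borders on the dissected cortex, summed to 728 to 951 CPM in excitatory neurons of Hip and 1084 to 1881 CPM in PFC, and 4 of the 8 tested were higher in PFC, among them Ppp1r1b (log2 -1.46), beside 20.3% of all genes tested in excitatory neurons. The part of such neighbouring tissue in the differences below was not tested.

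Genes were tested on UMIs summed per library by the quasi-likelihood test of edgeR with the mouse as a block, and called at a Benjamini-Hochberg adjusted p under 0.05. Levels are CPM, the UMIs of a gene per 1000000 UMIs of the library's nuclei of that class, after TMM scaling, and a log2 fold change is that of Hip over PFC with its standard error (SE). In sums of nuclei, fewer nuclei of a kind and less RNA per nucleus cannot be told apart.

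Over all nuclei, 3164 genes were higher in Hip (16.1% of the 19651 tested) and 2933 higher in PFC (14.9%). At least a 2-fold difference was seen for 806 genes in each direction. Apart from Ttr, the genes of at least 50 CPM with the largest differences toward Hip were Prox1, Chst9, Shisa6, Htr4, Rnf182, Dnah9, Ror1, Tanc1 and Fgf10, and those toward PFC were Htr2a, Pld5, Rgs6, Cobl, Hs3st2, Tmem196, Cpne5, Fhod3, Arhgap10 and Scube1. Rnf182, a ubiquitin ligase gene, had 94.3, 96.8 and 102 CPM in Hip and 14.7, 13.3 and 14.9 CPM in PFC. Hs3st2, an enzyme that sulfates heparan chains, had 30.1, 27.9 and 33.9 CPM in Hip and 156, 131 and 146 CPM in PFC. Neither gene overlapped between the regions, as was so for 46.3% of all genes tested. The spread within a region was small beside the difference, with log2 fold changes of 2.77 ± 0.07 and -2.24 ± 0.08. Without mouse 7, 2472 genes were called.

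Excitatory neurons had the most called genes and also the most UMIs, 36564862 to 46701189 per library in Hip and 46827341 to 56498824 in PFC. In these nuclei 4093 genes were higher in Hip (21.7% of 18834 tested) and 3821 higher in PFC (20.3%), of which 1017 and 1149 differed at least 2-fold. The median size of a called difference was 0.60 on the log2 scale. Without mouse 7 the count was 5148, and with nuclei thinned to the same mean number of UMIs it was 7577. Markers of other classes were not equal in these nuclei: the astrocyte markers summed to 346 to 407 CPM in Hip and 172 to 183 CPM in PFC, the oligodendrocyte markers to 196 to 217 and 84.1 to 100.2 CPM and the interneuron markers to 109 to 157 and 209 to 274 CPM, and their part in the differences was not tested.

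The identity genes of granule cells of the dentate gyrus were far higher in Hip. Prox1, the homeobox factor that fixes and maintains granule cell identity, had 98.4, 86.0 and 82.8 CPM in Hip and 1.58, 1.73 and 1.93 CPM in PFC of mice 5, 6 and 7, in that order as for all values below. Dsp, a desmosomal plaque protein, had 18.5, 14.5 and 14.04 CPM in Hip and 0.0439, 0.0625 and 0.111 CPM in PFC. C1ql2, a secreted protein of mossy fibre synapses, had 15.7, 16.4 and 17.5 CPM in Hip and 0.241, 0.0417 and 0.149 CPM in PFC. The PFC libraries held 2, 3 and 6 UMIs of Dsp and 11, 2 and 8 UMIs of C1ql2, so that the size of these folds rests on few counts. Their log2 fold changes were 5.66 ± 0.11 for Prox1, 7.66 ± 0.22 for Dsp and 6.84 ± 0.27 for C1ql2.

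Of the 12 genes listed for granule cells, 10 were higher in Hip and 1 in PFC, beside 21.7% and 20.3% of all genes tested, with a median log2 fold change of 2.96 beside 0.01. Dock10, a guanine nucleotide exchange factor, and Glis3, a zinc finger factor, were higher in Hip at log2 3.48 ± 0.23 and 2.76 ± 0.08, and Lct, the lactase gene, at 4.33 ± 0.36. Calb1, the calcium buffer calbindin, is also made by upper layer cells of the cortex and was higher in Hip by only 0.70. Pdzd2 was higher in PFC (log2 -0.31), a call lost under some settings of the test, and Plk5 did not pass the test (log2 -0.03, adjusted p = 0.925).

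CA1 and CA3 are the fields of pyramidal cells in the hippocampus. Of 8 CA1 genes 6 were higher in Hip, beside 21.7% of all genes tested, 1 was higher in PFC and 1 was not called. Fibcd1, a membrane receptor that marks CA1, had 19.1, 24.8 and 19.9 CPM in Hip and 1.05, 1.81 and 1.36 CPM in PFC. Wfs1, the endoplasmic reticulum protein wolframin, had 30.5, 22.4 and 27.1 CPM in Hip and 9.59, 10.5 and 12.1 CPM in PFC. Ndst4, which modifies heparan sulfate, varied more among mice, with 195, 112 and 92.03 CPM in Hip and 43.5, 42.2 and 19.5 CPM in PFC. Each of these genes was higher in every Hip library than in any PFC library, while 50.9% of all genes tested did not overlap either. Mpped1 was the CA1 gene higher in PFC (log2 -0.50), and Pex5l did not pass the test (log2 -0.07, adjusted p = 0.732). Among 12 genes of CA2 and CA3, 5 were higher in Hip, including Galnt3 (log2 1.76) and Amigo2 (log2 2.06), and 4 were higher in PFC, including Prkcb (log2 -0.68), a protein kinase C gene that cortical neurons also use. The median of these 12 was 0.15 on the log2 scale, and 20.3% of all genes were higher in PFC.

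Of 10 genes of the upper cortical layers 6 were higher in PFC and 3 in Hip, beside 20.3% and 21.7% of all genes tested. Calb1 and Wfs1, which also stand in the granule cell and CA1 lists, were among the 3 higher in Hip. Cux2, a homeobox factor of layers above layer 5, had 33.3, 51.2 and 68.3 CPM in Hip and 170.3, 203 and 192 CPM in PFC. Rorb, the orphan receptor that marks layer 4 cells, had 28.5, 29.2 and 38.0 CPM in Hip and 188, 242 and 173 CPM in PFC. Lamp5, a membrane protein of upper layer cells, had 15.9, 15.2 and 26.0 CPM in Hip and 76.8, 96.0 and 81.7 CPM in PFC. Every PFC library exceeded every Hip library for these genes, while 50.9% of all genes tested did not overlap either. Log2 fold changes were -1.94 ± 0.17, -2.65 ± 0.17 and -2.18 ± 0.19.

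Of 13 deep layer genes 4 were higher in Hip and 4 in PFC, beside the same shares of all genes. Syt6, a synaptotagmin of corticothalamic cells, was 11.1 times higher in PFC, with 2.71, 2.35 and 2.94 CPM in Hip and 28.7, 27.6 and 32.3 CPM in PFC. Foxp2, a forkhead factor of layer 6, had 33.1, 31.1 and 36.6 CPM in Hip and 151, 110.4 and 138 CPM in PFC, and Tbr1, the T-box factor of the same layer, was higher in PFC at log2 -1.23 ± 0.13. Tshz2, a zinc finger factor, had the opposite direction, with 380.4, 376 and 544 CPM in Hip and 129, 98.4 and 106 CPM in PFC, and Etv1 was higher in Hip at log2 1.05 ± 0.07. Fezf2, which specifies subcerebral projection neurons, did not pass the test, with 10.7, 13.1 and 12.1 CPM in Hip and 12.97, 13.3 and 13.03 CPM in PFC (adjusted p = 0.24).

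Of 24 transcription factors of cortical patterning 14 were higher in Hip and 8 in PFC, again beside 21.7% and 20.3%. Zbtb20, which is needed for hippocampal pyramidal identity, was 12.8 times higher in Hip, with 2326, 1949.7 and 1930.1 CPM in Hip and 142, 145 and 202 CPM in PFC. Lhx9, a LIM homeobox factor, had 10.9, 12.5 and 9.26 CPM in Hip and 0.154, 0.292 and 0.279 CPM in PFC. Emx2, a factor of the caudal and medial cortex in the embryo, was higher in Hip at log2 1.79 ± 0.27. Toward PFC, Pou3f2, an upper layer factor also called Brn2, had 4.19, 3.16 and 7.03 CPM in Hip and 19.3, 26.1 and 24.2 CPM in PFC. Mef2c and Meis2 were also higher in PFC, at log2 -1.76 ± 0.16 and -1.51 ± 0.07. None of the factors named here overlapped between regions, while 50.9% of all genes tested in excitatory neurons did not overlap either.

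Apart from Ttr, given above with choroid plexus (log2 11.20 ± 1.29, a call lost under at least 1 other setting), the largest differences among genes of at least 50 CPM were those of Prox1, Ror1, Rerg, Shisa6, Zbtb20, Chst9, Maml2, Dock10 and Frmd4b toward Hip, with log2 fold changes from 3.45 to 5.66, and Pld5, Htr2a, Tmem196, Col19a1, Rorb, Rgs6, Lhfp, Fhod3, Plcb4 and Cobl toward PFC, from -3.45 to -2.43. Shisa6, an auxiliary protein that holds AMPA receptors at the synapse, had 572, 560.3 and 549 CPM in Hip and 41.7, 32.1 and 52.0 CPM in PFC. Rgs6, which ends signalling by inhibitory G proteins, had 122, 125 and 214 CPM in Hip and 835, 908 and 972 CPM in PFC. Plcb4, a phospholipase C downstream of metabotropic glutamate receptors, had 26.2, 30.5 and 31.9 CPM in Hip and 155, 193 and 145 CPM in PFC. The regions were apart by several fold for each of these genes, in each mouse.

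**Figure D2:**
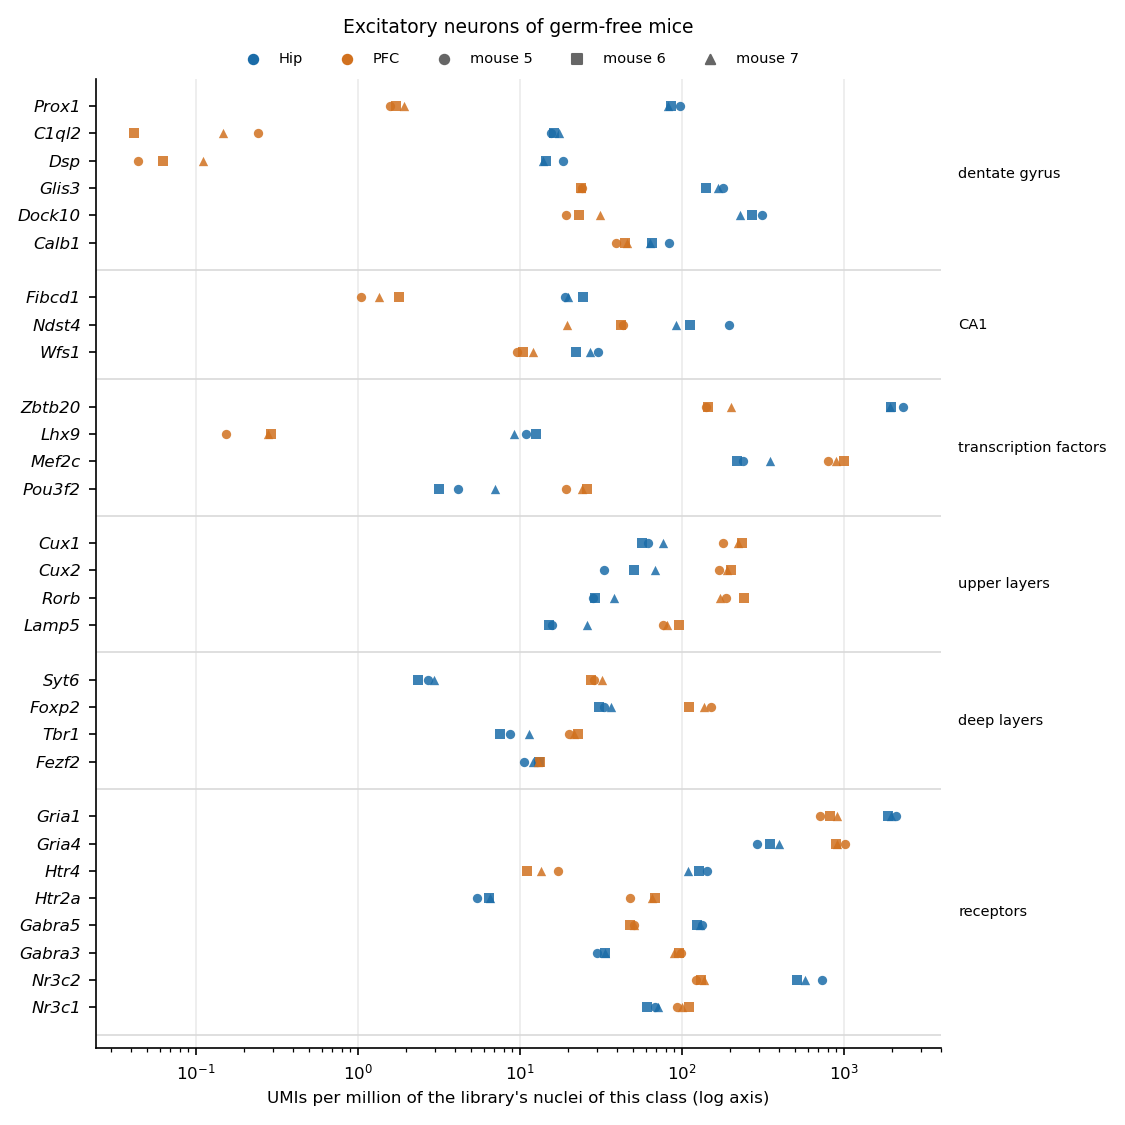
Level of named genes in excitatory neurons of GF mice, in CPM after TMM scaling on a log x axis, with 1 point per library, Hip in blue and PFC in orange and a symbol for each mouse, grouped by role. The genes drawn were picked from the lists. Members that went the other way or were not called, among them Pdzd2, Plk5, Mpped1 and Pex5l, are not drawn, nor are the deep layer genes Tshz2 and Etv1. The granule cell and CA1 genes drawn lay to the right in Hip, and of these Calb1 and Wfs1 also stand in the upper layer list. The genes drawn as upper layer genes, Cux1, Cux2, Rorb and Lamp5, lay to the right in PFC. The regions met only for Fezf2.

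Of 15 subunits and auxiliary proteins of AMPA and kainate receptors 4 were higher in Hip and 9 in PFC, beside 21.7% and 20.3% of all genes tested. Gria1, a pore subunit, had 2111, 1884 and 1954 CPM in Hip and 717, 822 and 911 CPM in PFC, whereas Gria4 had 294, 354 and 397 CPM in Hip and 1019, 897 and 906 CPM in PFC and Gria3 753, 687 and 619.6 CPM in Hip and 1135, 1303 and 1116 CPM in PFC. Gria2, the subunit that blocks calcium entry, did not pass the test (log2 0.20 ± 0.11, adjusted p = 0.182). The auxiliary subunits also parted: Cacng8 was higher in Hip (log2 1.01 ± 0.07) and Cacng2 and Cacng3 in PFC (log2 -1.06 ± 0.07 and -1.04 ± 0.12). Of the 7 NMDA receptor genes 2 were called, near the 42.0% of all genes tested: Grin2a and Grin2d were higher in Hip by 0.41 and 0.48 with calls that some settings lost, and Grin1, the obligatory subunit, had 474, 457 and 448 CPM in Hip and 484, 491 and 456 CPM in PFC (adjusted p = 0.62). Of the 7 metabotropic receptors 2 were higher in Hip, near the background, and 3 in PFC, among them Grm3, with 137, 88.9 and 118 CPM in Hip and 541, 363 and 390.3 CPM in PFC.

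Among 12 subunits of the GABA-A receptor 2 were higher in Hip, no more than the 21.7% of all genes tested, and 5 in PFC, beside 20.3%. Gabra5, an alpha subunit of receptors outside the synapse, had 133, 125 and 129.7 CPM in Hip and 50.8, 48.1 and 50.9 CPM in PFC. Gabra3, another alpha subunit, had 30.1, 33.7 and 33.7 CPM in Hip and 99.4, 96.6 and 90.2 CPM in PFC, and Gabrg3 had 342, 313 and 371 CPM in Hip and 876, 874 and 915 CPM in PFC. The alpha subunits 5 and 3 therefore had opposite regional order in each of the 3 mice, and neither overlapped. Gabra2 was higher in Hip (log2 0.77) and Gabrd in PFC (log2 -0.81).

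Of 23 receptor genes for serotonin, dopamine, noradrenaline and acetylcholine 6 were higher in Hip and 8 in PFC, beside 21.7% and 20.3% of all genes tested, and the share in Hip is near that background. Htr2a, the serotonin receptor that couples to Gq, had 5.45, 6.45 and 6.61 CPM in Hip and 48.0, 68.5 and 65.5 CPM in PFC. Htr4, a serotonin receptor that raises cyclic AMP, had 144, 127 and 109 CPM in Hip and 17.3, 11.1 and 13.5 CPM in PFC. These receptors lay in opposite order, at log2 -3.29 ± 0.08 and 3.19 ± 0.11. The adrenergic receptor Adra1b was also higher in PFC, with 1.75, 2.32 and 3.101 CPM in Hip and 16.4, 19.8 and 21.3 CPM in PFC, as was the muscarinic receptor Chrm2 (log2 -1.57). The dopamine receptor Drd5 was higher in Hip at low levels, with 2.46, 1.91 and 2.40 CPM in Hip and 0.132, 0.396 and 0.223 CPM in PFC, and the nicotinic subunit Chrna7 at log2 1.06.

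Of 22 neurotrophins, neuropeptides and receptors 6 were higher in Hip, again near the 21.7% of all genes tested, and 8 in PFC, beside 20.3%. Npy2r, a presynaptic receptor of neuropeptide Y, had 9.70, 7.57 and 9.28 CPM in Hip and 0.373, 0.313 and 0.408 CPM in PFC, and Ntf3, the neurotrophin NT-3, had 15.7, 20.9 and 19.2 CPM in Hip and 2.17, 1.29 and 2.17 CPM in PFC. Cckbr, the brain receptor of cholecystokinin, had 5.95, 6.68 and 12.9 CPM in Hip and 34.5, 41.1 and 40.9 CPM in PFC. Oprk1, the kappa opioid receptor, was higher in PFC at log2 -2.96 ± 0.18 with under 5 CPM in every library. Bdnf did not pass the test, with 57.0, 47.9 and 48.4 CPM in Hip and 50.1, 44.0 and 45.0 CPM in PFC (adjusted p = 0.0973), whereas its receptor Ntrk2 was higher in PFC (log2 -0.71).

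Of 10 genes of the corticosteroid response 4 were higher in Hip and 3 in PFC, beside the same 21.7% and 20.3% of all genes. Nr3c2, the mineralocorticoid receptor, had 736, 517 and 579 CPM in Hip and 122, 131 and 138 CPM in PFC. Nr3c1, the glucocorticoid receptor, had 68.9, 61.4 and 71.3 CPM in Hip and 94.1, 111 and 101 CPM in PFC. The mineralocorticoid receptor was thus 4.63 times higher in Hip and the glucocorticoid receptor 1.52 times higher in PFC. Of the receptors for corticotropin-releasing hormone, Crhr1 was higher in PFC, with 15.5, 13.9 and 21.3 CPM in Hip and 36.2, 41.9 and 46.6 CPM in PFC, and Crhr2 was higher in Hip at under 3 CPM (log2 2.69 ± 0.55), a call that some settings lost. Fkbp5, a chaperone that glucocorticoids induce, was higher in Hip by 0.49.

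Of 44 genes of cell adhesion and axon guidance 19 were higher in Hip and 16 in PFC, beside 21.7% and 20.3% of all genes tested. Epha6, an ephrin receptor, had 2834, 2346 and 2101 CPM in Hip and 668, 832 and 619 CPM in PFC. Its possible ligand Efna5 had 79.5, 86.9 and 145 CPM in Hip and 297, 397 and 353 CPM in PFC. Sema3a, a secreted semaphorin, was higher in PFC at log2 -2.04 ± 0.21, and Nrp1, the receptor subunit that binds it, was higher in Hip at 1.55 ± 0.09. Further genes higher in Hip were Sema5a (log2 1.62), Cdh9 (1.52) and Slit1 (1.48).

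Of 24 potassium channel genes 6 were higher in Hip, near the 21.7% of all genes tested, and 8 in PFC, beside 20.3%. The ether-a-go-go family members Kcnh5, Kcnh7 and Kcnh1 were higher in PFC at log2 -1.73 ± 0.19, -1.56 ± 0.12 and -1.31 ± 0.07, and Kcnq5, a subunit of the M-current channel, at -1.05 ± 0.12. Kcnn3, a calcium-activated channel, was higher in Hip, with 36.7, 53.9 and 56.2 CPM in Hip and 21.5, 18.2 and 31.6 CPM in PFC. Kcnd2, the A-type channel of dendrites, was higher in Hip by 0.49, a call that some settings lost.

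Immediate early genes, which neurons switch on within minutes of activity, did not move together. Of 14 genes 4 were higher in Hip, near the 21.7% of all genes, and 7 in PFC, beside 20.3%. Jun had 42.3, 48.8 and 42.3 CPM in Hip and 15.4, 10.1 and 11.5 CPM in PFC, and Nr4a2 was higher in Hip at log2 1.76 ± 0.07. Egr1 had 46.8, 29.5 and 48.4 CPM in Hip and 73.0, 54.6 and 82.3 CPM in PFC, Arc 56.8, 33.7 and 38.6 CPM in Hip and 79.5, 53.2 and 57.7 CPM in PFC, and Fos did not pass the test with 17.3, 12.2 and 15.1 CPM in Hip and 23.8, 10.2 and 17.03 CPM in PFC (adjusted p = 0.438). Egr1, Egr3, Homer1 and Arc were higher in PFC at log2 -0.76, -1.01, -0.98 and -0.57. Mouse 6 had the lowest level of Egr1, Arc and Fos in both regions, and Arc, whose call some settings lost, overlapped between the regions.

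Of 15 clock genes 8 were higher in PFC and 1 in Hip, beside 20.3% and 21.7% of all genes tested. Npas2, a partner of the clock factor Bmal1, had 97.9, 100.5 and 116 CPM in Hip and 204, 239 and 253 CPM in PFC, and Arntl, which encodes Bmal1, had 71.6, 58.8 and 75.2 CPM in Hip and 117, 102 and 117 CPM in PFC. Per1 was higher in PFC at log2 -0.72 ± 0.10, and Bhlhe41 was the gene higher in Hip, at 0.70 ± 0.15, a call that some settings lost. The hour of dissection of the regions is not given in the sources used here.

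Interneurons differed in 535 genes toward Hip (3.89% of 13758 tested) and 620 toward PFC (4.51%), and 290 of these differed at least 2-fold. Without mouse 7 the count was 599, and DESeq2 called 493. Of the 283 genes that were enriched in interneurons, taken as at least 2 times the CPM of each other class in both regions, 48 were higher in Hip and 48 in PFC (33.9%), against 7.86% of the other genes. The choice of this group was made after values were seen.

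A group of long noncoding RNAs with wide differences in interneurons lies at 1 place on chromosome 8. By the GENCODE vM21 annotation of GRCm38, the build of the files, 6 lincRNA genes span chr8:49370886-50916997, or 1546 kb: 4930555F03Rik, Gm45321, Gm45323, Gm45341, Gm2516 and C130073E24Rik. These names were chosen after their values were seen. C130073E24Rik had 727, 873 and 880.2 CPM in Hip and 62.7, 62.0 and 76.3 CPM in PFC in interneurons. Gm2516 had 351, 462 and 493 CPM in Hip and 31.8, 23.3 and 27.0 CPM in PFC, and 4930555F03Rik had 498, 629 and 613 CPM in Hip and 49.2, 36.3 and 39.9 CPM in PFC. Interneurons of Hip had more than 10 times the level of PFC for each of the 6, and the libraries of a region lay close together.

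Their log2 fold changes were 3.63 ± 0.10 for C130073E24Rik, 3.80 ± 0.14 for 4930555F03Rik, 3.76 ± 0.17 for Gm45321, 3.62 ± 0.13 for Gm45323, 3.597 ± 0.12 for Gm45341 and 3.99 ± 0.16 for Gm2516. Gm45341 on the minus strand overlaps Gm2516 on the plus strand. Whether counting used strand is not given in the sources used here, and whether reads of these genes were kept apart was not tested. In the span and 1000 kb on either side 8 genes were tested, and all 8 were higher in Hip in interneurons. Of all genes tested in interneurons 3.89% were higher in Hip. The lincRNA genes above are among the 8 and were chosen by their values, so their part in this count was fixed in advance. Genes with too few counts to be tested are left out. Gm45829 was higher at log2 3.06 ± 0.49 and Tenm3, whose near end is 527 kb from the group, at 2.65 ± 0.10. Tenm3, a teneurin that matches synaptic partners, had 1171, 1270.2 and 1230.3 CPM in Hip and 217, 182 and 186 CPM in PFC.

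In excitatory neurons the 6 lincRNA genes were also called, but with smaller differences, from log2 0.58 ± 0.17 for Gm45341 to 1.28 ± 0.30 for 4930555F03Rik, and the calls of 4930555F03Rik, Gm45321, Gm45323 and Gm45341 there were lost under at least 1 other setting. C130073E24Rik reached a mean of 33.3 CPM in Hip and 17.6 CPM in PFC in excitatory neurons, 8.58 and 7.26 CPM in astrocytes and 2.16 and 3.17 CPM in microglia, before TMM scaling, and 821 and 67.0 CPM in interneurons. The level in the interneurons of PFC was still above that of every other class.

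**Figure D3:**
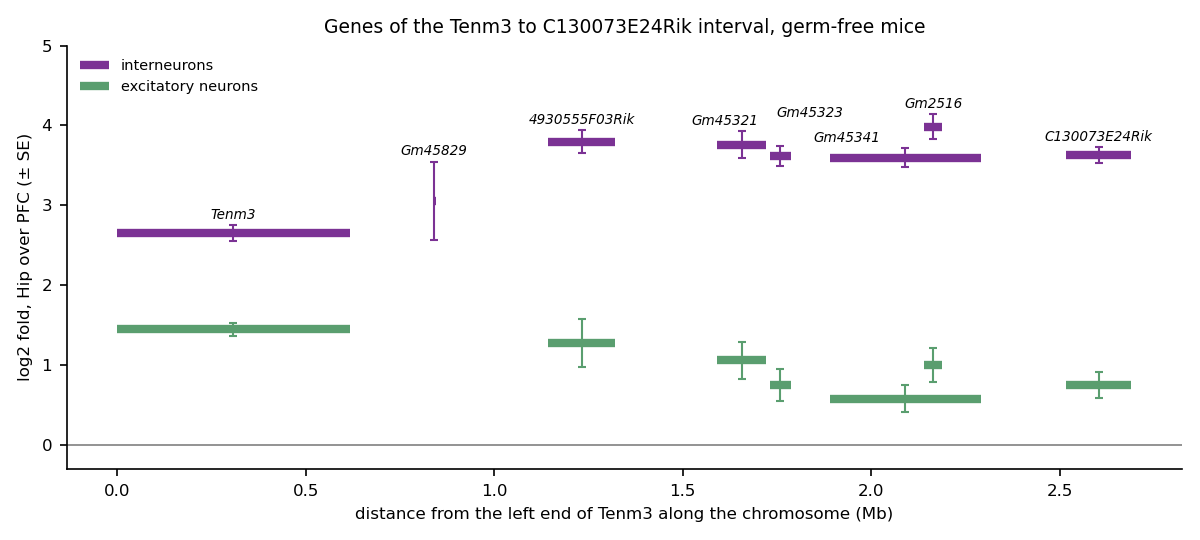
Log2 fold change of Hip over PFC (y axis, bars to 1 SE) of the tested genes from Tenm3 to C130073E24Rik. Interneurons and excitatory neurons of GF mice are shown, and each gene is a line from its first to its last base. The x axis is the distance from the left end of Tenm3 in Mb. The lincRNA genes lay above 3 in interneurons and between 0.58 and 1.28 in excitatory neurons.

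Among the other interneuron genes higher in Hip were Pde3a, Mctp2, Nrp2, Col25a1, Stk32a, Tll1, Unc5d, Greb1l and Hapln1. Pde3a, a phosphodiesterase of cyclic nucleotides, had 140.1, 121 and 125 CPM in Hip and 19.6, 15.1 and 25.0 CPM in PFC. Col25a1, a membrane-bound collagen, had 1125, 798 and 598 CPM in Hip and 213, 154 and 197 CPM in PFC. Hapln1, a link protein of perineuronal nets, was higher in Hip at log2 1.45 ± 0.12, and Pappa, a protease that frees insulin-like growth factor, at 2.42 ± 0.18. The Hip libraries of Col25a1 ranged more widely than those of Pde3a, yet stayed above all PFC libraries.

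Toward PFC the named genes were Unc13c, Mgat4c, Frmpd1, Sox6, Cdh7, Samd5, Npy, Runx2, Tmem132cos and Kcnk2. Sox6, a factor that interneurons of the medial ganglionic eminence keep after migration, had 205, 198 and 257 CPM in Hip and 562, 610.3 and 619.7 CPM in PFC. Mgat4c, a glycosyltransferase, had 540.1, 472 and 537 CPM in Hip and 1415, 1586 and 1639 CPM in PFC. Unc13c, a priming factor of synaptic vesicles, had 27.1, 26.7 and 32.4 CPM in Hip and 134, 178 and 132 CPM in PFC. For each of the 3 every PFC library was above every Hip library, while 23.4% of all genes tested in interneurons did not overlap either.

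Of 25 tested genes that define interneuron subclasses 4 were higher in Hip and 7 in PFC, beside 3.89% and 4.51% of all genes tested. Npy, neuropeptide Y, had 44.8, 64.2 and 55.9 CPM in Hip and 139, 139 and 123 CPM in PFC. Npy was also called higher in PFC in each of the other classes tested. Its level in microglia of PFC, given below, was close to that in interneurons. The part of RNA from other cells in this difference was not tested. Pvalb, parvalbumin of fast-spiking cells, had 22.8, 21.6 and 30.5 CPM in Hip and 40.7, 47.9 and 39.5 CPM in PFC, and Lhx6, a factor of the medial ganglionic eminence, was higher in PFC by a small margin (log2 -0.35 ± 0.10, adjusted p = 0.0462). Higher in Hip were Cnr1, the cannabinoid receptor, with 414, 356 and 300.3 CPM in Hip and 213, 218 and 246 CPM in PFC, Nos1 (log2 0.69), the serotonin-gated channel Htr3a (1.12) and the caudal eminence factor Nr2f2 (0.62). Sst, somatostatin, did not pass the test, with 113, 215 and 257 CPM in Hip and 269, 277 and 218 CPM in PFC (adjusted p = 0.659), nor did Vip, with 69.0, 34.0 and 97.4 CPM in Hip and 110.2, 178 and 115 CPM in PFC (adjusted p = 0.525). Calls of Htr3a, Lhx6, Nr2f2, Penk and Tac1, and that of Nrp2, were each lost under at least 1 other setting.

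Of 24 potassium channel genes in interneurons 12 were higher in PFC and 2 in Hip, beside 4.51% and 3.89% of all genes tested. Kcnip4, a subunit of A-type channels, had 2087, 1651 and 1836 CPM in Hip and 4832, 5531 and 5076 CPM in PFC, and Kcnq3, of the M-current channel, had 433, 418 and 430.1 CPM in Hip and 644, 764 and 741 CPM in PFC. Kcnd2 had 1021, 982 and 1049 CPM in Hip and 1547, 1646 and 1609.9 CPM in PFC, which is the reverse of its order in excitatory neurons. Kcnd3 and Kcnj6 were the genes higher in Hip, at log2 0.44 ± 0.10 and 0.50 ± 0.09.

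Of 43 adhesion and guidance genes in interneurons 16 were higher in Hip and 7 in PFC, beside 3.89% and 4.51% of all genes tested. Nrp1 had 79.5, 66.4 and 80.5 CPM in Hip and 15.9, 16.3 and 17.5 CPM in PFC and Sema3a 13.9, 9.06 and 15.2 CPM in Hip and 46.8, 62.0 and 52.1 CPM in PFC, so that this receptor and its ligand were in opposite order in interneurons as in excitatory neurons. Unc5d, a netrin receptor, had 1382, 1455 and 1511 CPM in Hip and 551, 440.4 and 541 CPM in PFC and was higher in PFC in excitatory neurons. Among transmitter receptors, Gria1 was higher in Hip (log2 0.85 ± 0.09), as was the serotonin receptor Htr7 (1.39 ± 0.12), while Gabrd was higher in PFC (-1.14 ± 0.13). The growth factor Ntf3 was higher in Hip, at 3.33 ± 0.29, and the opioid precursor Pdyn was higher in PFC at -2.45 ± 0.36.

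Astrocytes differed in 743 genes toward Hip (6.63% of 11211 tested) and 651 toward PFC (5.81%), and 355 of these differed at least 2-fold. The count was 881 without the block on the mouse and 503 without mouse 7, while DESeq2 called 287. Of 688 astrocyte-enriched genes 45 were higher in Hip and 98 in PFC (20.8%), against 11.9% of the other genes. Without the block 75 of the enriched genes were called, without mouse 7, 47, and by DESeq2, which was run with no such filter on low counts, 42.

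Several genes that astrocytes express above other classes had wide differences toward PFC. Chrdl1, a secreted antagonist of bone morphogenetic proteins that astrocytes release onto synapses, had 15.0, 10.5 and 20.7 CPM in Hip and 89.2, 131 and 105 CPM in PFC. Greb1, a regulator of steroid receptor targets, had 6.56, 3.82 and 3.70 CPM in Hip and 82.9, 54.9 and 33.8 CPM in PFC. Lama3, a laminin chain, had 34.7, 39.2 and 24.4 CPM in Hip and 163, 149 and 146 CPM in PFC. For each of them every PFC library was above every Hip library, with log2 fold changes of -2.76 ± 0.19, -3.55 ± 0.28 and -2.24 ± 0.16. Of all genes tested in astrocytes 24.2% did not overlap between the regions. In the other classes of PFC, Chrdl1 reached 3.94 CPM in microglia and 2.54 CPM in oligodendrocytes before TMM scaling.

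Further genes higher in PFC were Car8, Tfcp2l1, Rgs6, Hs3st3a1, Rbms3, Rcan2 and Pdzph1, with log2 fold changes from -2.69 for Car8 to -1.82 for Pdzph1. Vegfa, the vascular growth factor, had 227, 185 and 136 CPM in Hip and 310.4, 413 and 299.5 CPM in PFC. Lef1, a factor of the Wnt pathway, was higher in PFC at log2 -1.29 ± 0.18, and the secreted proteins Bmp7 and Sfrp1 at -1.21 ± 0.26 and -1.20 ± 0.32. Dio2, which activates thyroid hormone, was higher in PFC at -0.64 ± 0.12.

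Higher in Hip were Nr2f2, Kcnip1, Cnih2, Nnat, Kctd4, Hpca, Adamts20, Zfhx4, Jun and Hsd11b1. Of these, Hpca, Cnih2 and Jun were called higher in Hip in every other class tested as well. The mean of Cnih2 in Hip was lower in astrocytes than in oligodendrocytes and microglia, as given below. The part of RNA from other cells in these differences was not tested. Agt, which encodes angiotensinogen, had 33.7, 42.0 and 45.9 CPM in Hip and 5.62, 6.18 and 6.15 CPM in PFC. Hsd11b1, the enzyme that regenerates active corticosterone, had 81.6, 68.8 and 104 CPM in Hip and 30.2, 33.2 and 30.8 CPM in PFC. Nnat, neuronatin, had 392, 629 and 498 CPM in Hip and 136, 127 and 145 CPM in PFC. The Hip and PFC libraries did not overlap for Agt, Hsd11b1 and Nnat, as was so for 24.2% of all genes tested in astrocytes. No other class had a mean of Agt above 3.49 CPM before TMM scaling. Cyp7b1, an enzyme that hydroxylates oxysterols, was higher in Hip at log2 0.94 ± 0.11, and the NAD hydrolase Cd38 at 1.26 ± 0.22.

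Of 30 genes with a known regional or layer pattern in astrocytes 3 were higher in Hip (Agt, Sparc and Nr2f1) and 5 in PFC (Chrdl1, Igfbp2, Efhd2, Mertk and Glul), beside 6.63% and 5.81% of all genes tested, and the share in Hip is near that background. Mertk, a receptor for the uptake of synapses and debris, had 999, 865 and 1016 CPM in Hip and 1399.7, 1516 and 1325 CPM in PFC, and Glul, glutamine synthetase, had 520.3, 470.0 and 507 CPM in Hip and 637, 643 and 661 CPM in PFC. Slc1a2, the main glutamate transporter, did not pass the test, with 7017, 4980.3 and 6551 CPM in Hip and 6760.4, 6329 and 7051 CPM in PFC (adjusted p = 0.51). Gfap, the filament protein of fibrous and reactive astrocytes, had 108, 199 and 77.0 CPM in Hip and 96.9, 65.7 and 46.1 CPM in PFC (adjusted p = 0.0683), and its regions overlapped. Unc13c, with 47.8, 121 and 209 CPM in Hip and 419, 896 and 688 CPM in PFC, was lower in each Hip library but did not pass (log2 -2.46 ± 0.36, adjusted p = 0.053). Clu, clusterin, was higher in Hip by 0.64. Calls of Bmp7, Cd38, Clu, Glul, Hgf, Igfbp2, Sfrp1 and Tnc were each lost under at least 1 other setting.

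**Figure D4:**
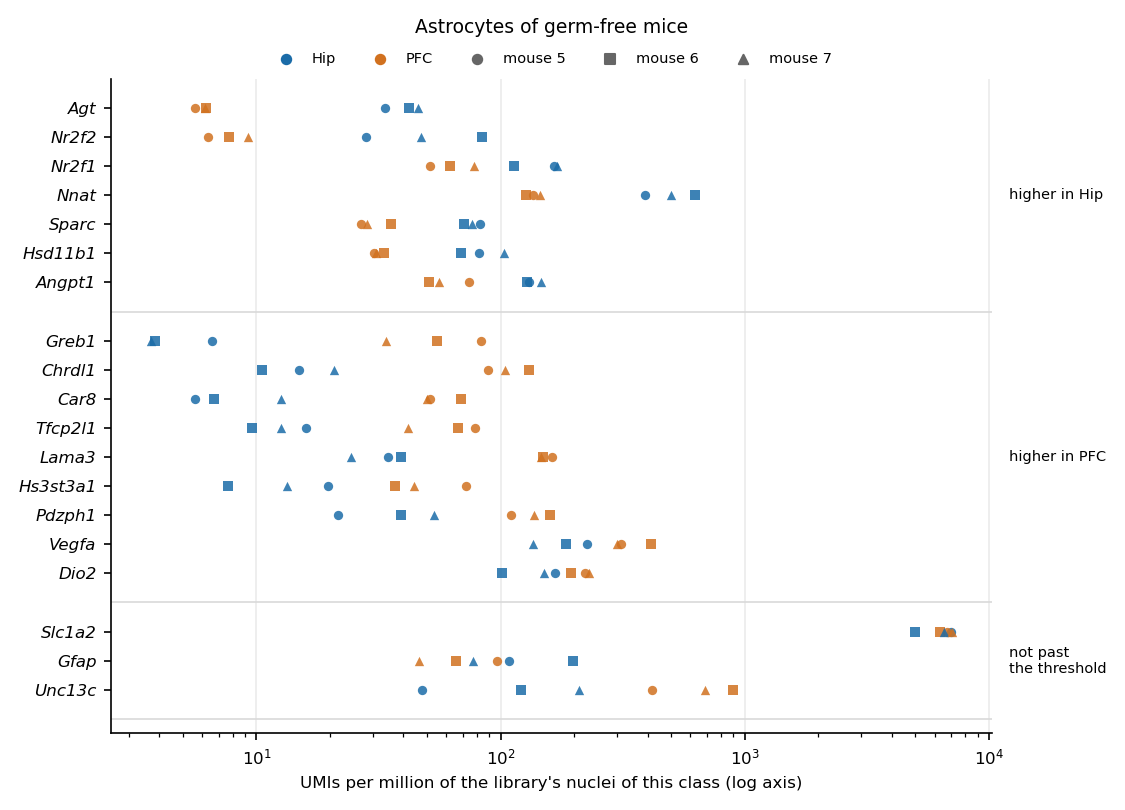
Level of named genes in astrocytes of GF mice, in CPM after TMM scaling on a log x axis, with 1 point per library, Hip in blue and PFC in orange and a symbol for each mouse. Chrdl1, Greb1 and Lama3 lay higher in PFC and Agt and Hsd11b1 higher in Hip in every mouse, while the regions overlapped for Gfap.

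Oligodendrocytes differed in 288 genes toward Hip (3.05% of 9432 tested) and 322 toward PFC (3.41%), but few of these were genes of the class. Of 531 oligodendrocyte-enriched genes 4 were higher in Hip and 9 in PFC (2.45%), against 6.71% of the other genes. Without mouse 7 the total was 95, of which 1 was enriched, without the block on the mouse 6 enriched genes were called, and DESeq2 called 99 genes in all. The enriched genes higher in Hip and in PFC numbered 11 and 8 with no filter on low counts, 3 and 3 without the block and 1 and 1 by DESeq2, so that no side was favoured under every setting. Mbp and Mal, genes of myelin that the gate did not use, did not pass the test: Mbp had 3904, 3978 and 3577 CPM in Hip and 3975, 3808 and 3801 CPM in PFC (adjusted p = 0.956) and Mal 386, 417 and 455 CPM in Hip and 399.8, 495 and 366 CPM in PFC (adjusted p = 0.993). Their log2 fold changes were -0.02 ± 0.08 and 0.00 ± 0.11.

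Of 19 genes of oligodendrocyte maturation that the gate did not use 1 was higher in Hip (Hopx) and 2 in PFC, beside 3.05% and 3.41% of all genes tested. Of the 19, 7 had an unadjusted p under 0.05 in edgeR and DESeq2 called 1. Tcf7l2, a factor of newly differentiated oligodendrocytes, had 159.6, 147 and 140.2 CPM in Hip and 247, 289 and 431 CPM in PFC, and Itpr2, a calcium channel of the endoplasmic reticulum in the same cells, had 72.5, 35.7 and 51.1 CPM in Hip and 119, 53.7 and 177 CPM in PFC. PFC of mouse 7 was the highest library for each of them, and the regions overlapped for Itpr2. Calls of Hopx, Tcf7l2 and Itpr2 were each lost under at least 1 other setting. Enpp6, another gene of new oligodendrocytes, did not pass the test (log2 -0.40 ± 0.14, adjusted p = 0.0973). Cyp2j12, a cytochrome P450 with under 1 CPM in every other class, had 151, 145 and 126 CPM in Hip and 70.5, 67.1 and 67.6 CPM in PFC, and Kif19a, a kinesin, had 25.7, 17.1 and 12.0 CPM in Hip and 59.6, 57.0 and 59.9 CPM in PFC. Neither overlapped between the regions, as was so for 19.8% of all genes tested in oligodendrocytes. Nfasc, the neurofascin of paranodes, was higher in PFC at -0.55 ± 0.10, and Bfsp2 and Cldn14 at -0.91 ± 0.19 and -0.82 ± 0.19, with calls that were lost under at least 1 other setting.

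In microglia 68 genes were higher in Hip (0.964% of 7052 tested) and 77 in PFC (1.09%), the lowest count of the 5 classes, although without mouse 7 oligodendrocytes had fewer calls (95) than microglia (122). None of the 847 microglia-enriched genes was called by edgeR with the settings given above, 15 had an unadjusted p under 0.05, and DESeq2 called 0. With no filter on low counts edgeR called 1 enriched gene, as it did without mouse 7 and without the 5% of nuclei with the most UMIs. Of 10 homeostatic and 13 immune genes that were tested and that the gate did not use, 0 were called by edgeR or DESeq2, and 1 of each list had an unadjusted p under 0.05 in edgeR. Tmem119, a membrane protein that marks resident microglia, had 234, 172 and 169 CPM in Hip and 150.1, 249 and 198 CPM in PFC. Selplg, the ligand of P-selectin, had 1377, 1441 and 1306 CPM in Hip and 1431, 1384 and 1209.7 CPM in PFC. Their regions overlapped, with log2 fold changes of -0.04 ± 0.20 and 0.04 ± 0.10. Microglia also had the lowest depth, with 286193 to 312372 UMIs per library in Hip and 383542 to 499220 in PFC, which limits what could be detected. The part of depth in the low count was not tested. The count of 145 was 309 without mouse 5, 42 without mouse 6 and 19 by DESeq2.

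Most genes called in microglia were also called in excitatory neurons. Of the 145, 140 were called there with the same direction, 5 were not called and 0 had the opposite direction. Over all genes tested in excitatory neurons, 21.7% were higher in Hip and 20.3% in PFC, together 42.0%. This share was not restricted to genes also tested in microglia. Hpca, the neuronal calcium sensor hippocalcin, had 363, 300.0 and 360.0 CPM in Hip and 123, 123 and 100.3 CPM in PFC in microglia and 134, 133 and 124 CPM in Hip and 46.9, 53.1 and 59.2 CPM in PFC in excitatory neurons. Camk2n1, an inhibitor of the kinase CaMKII, had 227, 274 and 345 CPM in Hip and 746, 683 and 780.3 CPM in PFC in microglia and 96.0, 106 and 124 CPM in Hip and 197, 246 and 254 CPM in PFC in excitatory neurons. Npy had 28.0, 21.9 and 49.8 CPM in Hip and 150.1, 129 and 124 CPM in PFC in microglia. The regional order of Hpca and Camk2n1 was the same in both classes, and their libraries did not overlap. Of all genes tested, 16.5% did not overlap in microglia and 50.9% in excitatory neurons.

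Of 610 genes called in oligodendrocytes 519 were called in excitatory neurons with the same sign and 21 with the opposite sign. These counts, too, stand beside 42.0% of either sign. In astrocytes the numbers were 954 and 104 of the 1392 tested in both, and in interneurons 680 and 193 of 1151. Among 6467 genes tested in all 5 classes, 29 were higher in Hip and 20 higher in PFC in every class. Those higher in Hip included Hpca, Cnih2, Gria1, Gabra5, Bhlhe22, Jun, Tmsb4x and Fth1, and those higher in PFC Camk2n1, Npy, Rgs4, Tbr1, Egr1, Homer1 and Kcnv1. These classes come from the same 6 libraries, so these counts do not come from independent samples.

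Cnih2, an auxiliary protein of AMPA receptors, had means before TMM scaling of 75.1 CPM in excitatory neurons, 103 in astrocytes, 114 in oligodendrocytes and 143 in microglia of Hip, and 20.3, 23.3, 30.9 and 44.9 in PFC. Summed over the 8 excitatory markers, microglia had 2411 to 2654 CPM in Hip and 2702 to 2887 CPM in PFC, and excitatory neurons 3593 to 4040 and 4469 to 4831 CPM. Free RNA of neurons, which droplets take up, and expression by the glia were not separated, and the part of the first in these glial calls was not tested. Of the 20 genes of the largest differences in microglia 6 were called under every setting that gave them an adjusted p: Bhlhe22, Nnat, Cnih2, Hpca, Npy and Camk2n1.

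**Figure D5:**
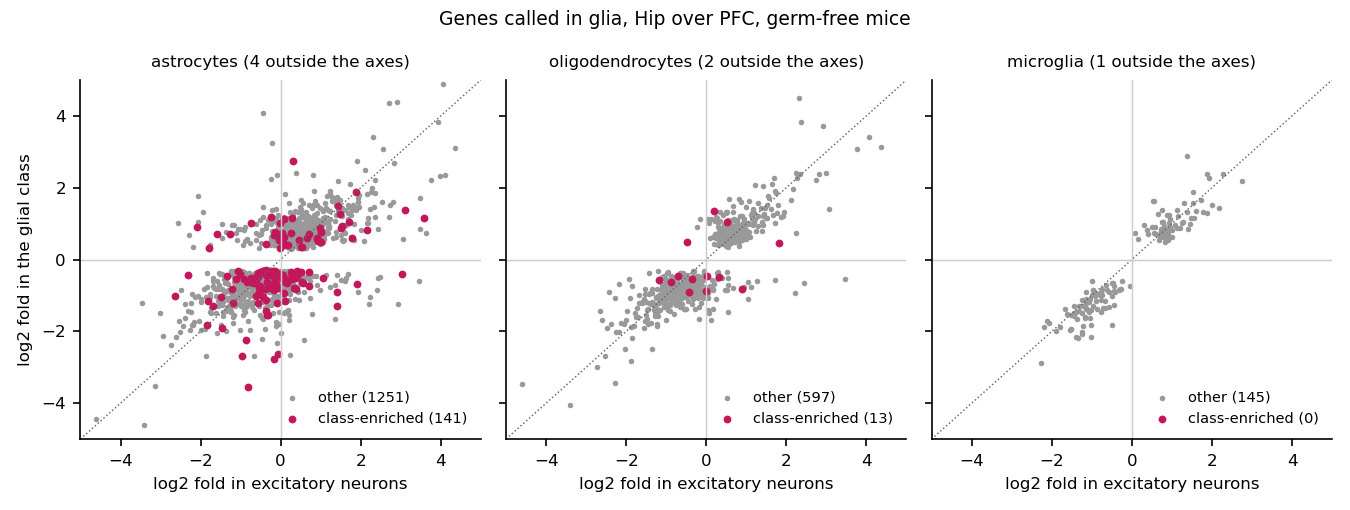
Log2 fold change of Hip over PFC of the genes called in astrocytes, oligodendrocytes and microglia (y axis) against that of the same genes in excitatory neurons (x axis), with genes enriched in the class marked apart. In microglia no point is an enriched gene and none lies in a quadrant of opposite sign, whereas 141 enriched genes are drawn for astrocytes, with Chrdl1 and Greb1 far below the diagonal. The panels leave out 4, 2 and 1 genes beyond the axes.

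Genes for energy supply and translation were called higher in Hip more often than in PFC. Among the gated classes the called share of these lists was largest in excitatory neurons and astrocytes, as was that of all genes tested. In excitatory neurons 56 of 71 nuclear genes of oxidative phosphorylation and 52 of 80 genes of cytosolic ribosomal proteins were higher in Hip, beside 21.7% of all genes, and 0 of either were higher in PFC. The median log2 fold change was 0.46 for each list, beside 0.01 for all genes. In astrocytes the counts were 29 of 67 and 28 of 51, beside 6.63% of all genes, and in oligodendrocytes 13 of 66 and 16 of 48, beside 3.05%. They were 3 of 69 and 8 of 71 in interneurons, where 3.89% of all genes were higher in Hip, and 1 of 63 and 2 of 38 in microglia, where 0.964% were. None was higher in PFC in these 4 classes. Of the 13 genes of the mitochondrial genome 6 were higher in Hip in excitatory neurons, 9 of 12 in astrocytes, 0 of 13 in interneurons, 0 of 11 in oligodendrocytes, 0 of 10 in microglia and 0 of 13 over all nuclei. Mitochondrial RNA in a nucleus library comes from outside the nucleus, and its share of UMIs was 0.451%, 0.812% and 0.879% in Hip of mice 5, 6 and 7 and 0.425%, 0.304% and 0.556% in PFC, higher in Hip in every mouse. The part of RNA from outside the nucleus in these lists was not tested.

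The regional difference of GF mice was set beside that of SPF and CGF mice in a fit of all 18 libraries. The difference between GF mice and the mean of the others passed the threshold for 58.7% of genes over all nuclei, 60.1% in excitatory neurons, 49.9% in interneurons, 32.9% in astrocytes, 25.4% in oligodendrocytes and 13.3% in microglia. The PFC libraries of the other mice differed from those of GF mice in depth: the SPF and CGF ones held 20336250 to 26949210 UMIs, with medians of 2353 to 3208 per nucleus, and mitochondrial genes gave 1.21% to 2.86% of UMIs. Microbiota and library quality cannot be told apart in this comparison, and the genes set side by side next were picked after their values were seen.

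For several of the widest differences GF mice did not differ past the threshold from the mean of the others; SPF mice were not tested against CGF mice. Prox1 in excitatory neurons had log2 fold changes of 5.67, 5.55 and 5.93 (GF, SPF and CGF), a difference of -0.08 ± 0.17 (adjusted p = 0.717, edgeR). Htr2a had -3.28, -2.81 and -2.98 (adjusted p = 0.36). In astrocytes Chrdl1 had -2.74, -2.29 and -3.00 (adjusted p = 0.851), Greb1 -3.53, -2.37 and -3.56 (adjusted p = 0.335) and Agt 2.77, 2.03 and 1.42 (adjusted p = 0.17). C130073E24Rik in interneurons had 3.63, 4.41 and 4.25, a difference of -0.70 ± 0.35 (adjusted p = 0.14). A value that misses the threshold does not show that the mice were alike. The direction was the same in all 3 for these 6 genes.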

How the data were processed

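Nuclei of Hip and PFC of GF mice 5, 6 and 7 were analysed from matrices of raw UMI counts per gene and nucleus. The authors made these deposited counts from droplet libraries of frozen tissue (10x Genomics 3′ chemistry) with Cell Ranger 3.1.0, per the file headers, on mm10, per the labels, and with CASAVA 1.8. The matrices hold a filtered set of barcodes, of which none of the GF libraries had under 200 genes. All counts depend on which nuclei survived isolation in a sucrose gradient, and reads in introns and RNA outside the nucleus were not separated.

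Nuclei with at least 200 genes and at most 10% mitochondrial UMIs were kept and gated by marker genes. No doublet caller was run; an alternative left out the 5% of nuclei with the most UMIs. Raw counts were summed per library and class, so that the library is the replicate, and tested with edgeR 4.0.16 in R 4.3.3 (filterByExpr, TMM, robust quasi-likelihood fit, Benjamini-Hochberg over all genes tested) with the mouse as a block, which leaves 2 residual degrees of freedom. The same mouse gave both regions, which is why the numbers pair. Deviations of libraries of 1 mouse correlated at 0.14 to 0.377 over all nuclei, 0.162 to 0.352 in excitatory neurons, 0.0838 to 0.187 in interneurons and 0.0291 to 0.0707 in microglia. Those of different mice correlated, in the same order, at -0.246 to 0.0395, -0.281 to 0.00344, -0.151 to 0.0399 and -0.0606 to 0.00773. Deviations were taken from the mean of the libraries of a region, so these correlations depend on one another. Shares were compared by exact permutation tests computed in Python 3.11.15 with NumPy 2.4.6. The test across genes was checked on simulated data. DESeq2 1.42.0, other filters, gates, depths and fits without 1 mouse were alternatives.

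Named genes were the 10 highest and 10 lowest log2 fold changes past the threshold with the same sign in all 3 mice and at least 50 CPM in the higher region, without clone names and mitochondrial genes; outside excitatory neurons, a gene also needed a level in the class at least that over all nuclei. Members of lists were named as well. The members, gene lists and tests were chosen with earlier results of these data known. Genes enriched in a class, the lincRNA genes, further genes of astrocytes and oligodendrocytes and the genes set beside SPF and CGF mice were chosen after their values were seen. Some items are not reported here.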

Additional observations from a re-analysis of the deposited data

Results flagged for a closer look

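The regional difference of 8 of the 14 genes set beside SPF and CGF mice differed in GF mice by a test of the difference itself (edgeR, interaction over 18 libraries). They were 3 of 5 in excitatory neurons, where 60.1% of all genes differed in this way, 3 of 4 in interneurons (49.9%), 1 of 4 in astrocytes (32.9%) and 1 of 1 in oligodendrocytes (25.4%), so that the count is no result about these genes. In excitatory neurons the difference of GF mice from the mean of the others was 1.92 on the log2 scale for Jun (1.87, -0.01 and -0.07 for the GF, SPF and CGF groups, adjusted p = 0.000538), -1.37 for Zbtb20 (3.69, 5.01 and 5.12, adjusted p = 0.000125) and -0.65 for Gria1 (1.29, 1.95 and 1.94, adjusted p = 0.00228). Zbtb20 and Gria1 were higher in Hip in all 3 kinds of mice, whereas Jun was near 0 in the others.

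In interneurons it was 3.34 for Npy (-1.28, -4.69 and -4.55, adjusted p = 3.24e-12), -1.72 for Mgat4c (-1.57, 0.06 and 0.23, adjusted p = 6.67e-09) and -0.71 for Tenm3 (2.66, 3.46 and 3.29, adjusted p = 0.0102). Npy and Tenm3 kept their direction in the 3 kinds of mice. In GF mice Npy was called higher in PFC in every class tested, as given above, and not in interneurons alone. Mgat4c was higher in PFC in GF mice, and its values in SPF and CGF mice were small and not tested on their own. For Glul in astrocytes it was 0.56 (-0.35, -0.85 and -0.97, adjusted p = 0.0012), and for Tcf7l2 in oligodendrocytes -1.12 (-1.04, -0.09 and 0.26, adjusted p = 0.000118).

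The PFC libraries of SPF and CGF mice had fewer UMIs and a larger mitochondrial share than those of GF mice, as given above, so that microbiota and library quality cannot be told apart. The genes were chosen after their values were seen.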

How the results depend on the processing

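No called difference of a named gene changed sign. Of 292 such differences 231 stayed called under every alternative that gave an adjusted p for them. DESeq2 gave one for 309 of the 318 differences named, called or not. The balance of calls between the regions did turn: over all nuclei 3164 genes were higher in Hip and 2933 in PFC, against 1149 and 1323 without mouse 7 and 2558 and 2571 by DESeq2. In excitatory neurons it was 4093 and 3821, against 3091 and 3143 without mouse 6, 2550 and 2598 without mouse 7 and 2915 and 3007 by DESeq2. In interneurons it was 535 and 620, against 840 and 762 without mouse 5 and 250 and 243 by DESeq2, in oligodendrocytes 288 and 322, against 399 and 306 without mouse 5 and 430 and 328 with no filter on low counts, and in microglia 68 and 77, against 64 and 58 without mouse 7. Without the mouse as a block 881 genes were called in astrocytes, against 1394 with the block; the replicate block moved no other count over all genes by over 1.5 times. DESeq2 called 493 genes in interneurons, 287 in astrocytes, 99 in oligodendrocytes and 19 in microglia. In microglia 257 were called with no filter on low counts and 219 with nuclei thinned to the same mean number of UMIs. Without the 5% of nuclei with the most UMIs 237 were called in microglia. Their share differed by -0.952 percentage points under the stricter gate. Leaving out 1 mouse gave 2472 to 5922 calls over all nuclei, 5148 to 7176 in excitatory neurons, 599 to 1602 in interneurons, 503 to 1336 in astrocytes, 95 to 705 in oligodendrocytes and 42 to 309 in microglia. The lowest count came without mouse 7, and in microglia without mouse 6. The differences in share ranged from 2.11 to 9.18 percentage points for excitatory neurons, -4.57 to -3.86 for interneurons, -1.50 to -0.800 for astrocytes, 1.47 to 2.72 for oligodendrocytes and -1.23 to -1.07 for microglia. Genes whose regional difference differed in GF mice numbered 2759 of 10881 tested in oligodendrocytes and 1033 of 7751 in microglia. Against SPF mice alone they numbered 1791 of 10881 and 447 of 7751. With all 18 libraries thinned to the lowest mean number of UMIs per nucleus they numbered 1752 of 7787 and 501 of 3504. Fewer genes could be tested after this thinning, so the counts alone cannot be compared. The causes were not tested; fits without 1 mouse have fewer libraries, and the thinned ones fewer UMIs. Microglia had the fewest UMIs, which limits what could be detected.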
